A study of Mus musculus with 8 samples.

Results

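Integrins are paired receptors in the cell membrane, each made of 1 α and 1 β subunit, that hold a cell to the matrix beneath it. The transcripts of 10 integrin subunit genes were followed in the mouse esophageal epithelium, and they were taken as a fixed list from a table of 55276 genes: Itgb1, Itga2, Itga3, Itga6, Itgb4, Itgav, Itgb5, Itgb6, Itgb8 and Itga9. All 10 were found in the table and all 10 passed the filter on low counts, which 17344 genes passed. They were listed by name, with earlier results of these data known.

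The cells came from C57BL6 mice of 14 to 15 weeks, 2 female and 2 male animals with no transgene, deletion or drug named in the labels. Epithelium was peeled from the esophageal muscle, digested with dispase and trypsin, and sorted for live cells (DAPI negative) that carried the integrin β1 protein on their surface. Those cells were parted by Cyto-ID, a dye that collects in autophagic vesicles, into a Cyto-ID Low and a Cyto-ID High fraction, and each animal gave 1 bulk RNA library of each, 8 libraries in all. Both fractions therefore passed the same integrin β1 gate, and the labels call both basal. Which fluorescence limits bounded the fractions is not given in the sources used here.

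In a stratified squamous epithelium the integrins sit mostly in the basal layer, the layer that touches the basement membrane and divides. There α6β4 anchors hemidesmosomes to laminin, α3β1 binds laminin in focal adhesions and α2β1 binds collagen, while the αv integrins bind proteins with an RGD motif and some of them release active TGF-β from its latent form. A keratinocyte that leaves the basal layer normally loses most of its integrins.

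The libraries held 26285150 to 28599954 counts in Cyto-ID Low and 27486049 to 29301054 in Cyto-ID High. Values are given as CPM, the count as a share of the library's total with edgeR's TMM scaling, and fold changes as log2 of High over Low from edgeR's quasi-likelihood test, with Benjamini-Hochberg adjustment over all genes tested and a call at an adjusted p under 0.05. Because the RNA was bulk, fewer cells of a type and less RNA per cell cannot be told apart. Of all genes tested, 48.7% were called, 25.3% lower and 23.4% higher in High, and the median log2 fold change over all genes was -0.09. When libraries were scaled by their total counts alone, that median moved by -0.55, so fold changes near 0 depend on the scaling. The 5 basal keratinocyte markers (Krt5, Krt14, Krt15, Trp63, Sox2) were all lower in High, with summed levels of 17720 to 20950 CPM in Low against 2525 to 4098 CPM in High. The 6 suprabasal markers (Krt4, Krt13, Krtdap, Sbsn, Ivl, Tgm3) were all higher, from 8471 to 24530 CPM in Low to 133700 to 229300 CPM in High. The High fraction, labelled basal like the Low, thus carried the lower basal and the higher suprabasal levels. The part of these markers in the integrin results below was not tested.

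The sequences just before the transcription start are shown for 4 members, 2 whose transcript was lower in High (Itgb1, the gate's own gene, and Itga2), 1 that was higher (Itgb5) and 1 whose call did not pass (Itgav). RefSeq's promoter table for GRCm38.p6 held 8 of the 10 members, and for these 4 the RefSeq start is also the gene start in GENCODE M21. Each run is the 250 bases before the start, 5′ to 3′ on the gene's strand, at chr8:128685404-128685653 (+ strand) for Itgb1, chr13:114932101-114932350 (- strand) for Itga2, chr2:83724147-83724396 (+ strand) for Itgav and chr16:33829415-33829664 (+ strand) for Itgb5. Capitals mark a match on either strand to AP-1 (TGANTCA), Sp1 (GGGCGG), TEAD (GGAATG) or a TATA box (TATAAA), and none of the marked matches overlap.
Itgb1: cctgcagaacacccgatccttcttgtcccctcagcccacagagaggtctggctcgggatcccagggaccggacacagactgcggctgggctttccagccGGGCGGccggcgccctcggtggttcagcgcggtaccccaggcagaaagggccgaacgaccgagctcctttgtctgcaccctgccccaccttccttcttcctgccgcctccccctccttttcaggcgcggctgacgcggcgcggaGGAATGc
Itga2: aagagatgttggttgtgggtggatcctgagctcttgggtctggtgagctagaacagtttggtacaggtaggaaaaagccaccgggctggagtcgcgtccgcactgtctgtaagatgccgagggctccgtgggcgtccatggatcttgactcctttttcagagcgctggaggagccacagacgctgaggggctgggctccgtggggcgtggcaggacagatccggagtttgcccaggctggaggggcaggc
Itgav: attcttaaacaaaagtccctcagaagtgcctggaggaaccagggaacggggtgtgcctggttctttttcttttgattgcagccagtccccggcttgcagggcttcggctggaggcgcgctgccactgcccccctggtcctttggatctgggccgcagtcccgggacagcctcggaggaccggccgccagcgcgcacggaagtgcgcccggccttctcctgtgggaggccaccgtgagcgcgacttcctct
Itgb5: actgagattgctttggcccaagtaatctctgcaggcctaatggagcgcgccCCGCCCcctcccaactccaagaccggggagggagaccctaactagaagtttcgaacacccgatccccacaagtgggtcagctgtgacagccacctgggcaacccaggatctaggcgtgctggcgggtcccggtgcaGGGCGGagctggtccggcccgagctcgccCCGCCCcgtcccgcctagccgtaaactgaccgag
Itgb5 held 3 Sp1 matches, Itgb1 held 1 Sp1 and 1 TEAD match, and Itga2 and Itgav held none of the 4 motifs. A window of Itga3 not shown, whose transcript was lower in High, also held 3 Sp1 matches, and another of that gene held 1. Among 32851 promoter windows of the same length, 32.7% held the Sp1 letters, 12.6% the TEAD letters, 6.75% the AP-1 letters and 12.4% the TATA letters. All 4 windows had more G and C than the median window (52.4%), at 68.0% for Itgb1, 60.8% for Itga2, 64.4% for Itgav and 65.2% for Itgb5. The matches are a description of the letters and were not tied to the transcript levels.

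Transcripts of the subunits that bind basement membrane fell together in High, while the αv group split. Of the 10 members, 6 were lower in High (Itgb4, Itga3, Itga6, Itga2, Itgb1 and Itgb6), 1 was higher (Itgb5) and 3 were not called (Itgav, Itgb8, Itga9), against 25.3% lower and 23.4% higher over all genes. Their median log2 fold change was -1.88, beside -0.09 for all genes. By CPM ranges alone, 5 members lay wholly lower in High, where 24.9% of all genes did, and 2 lay wholly higher (Itgb5 and Itgav), where 23.6% of all genes did. For Itgav the gap was narrow, with 103.9 CPM in the Low and 105.2 CPM in the High library of Female1. The plot of CPM by library shows each animal's pair of values.

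**Figure D1:**
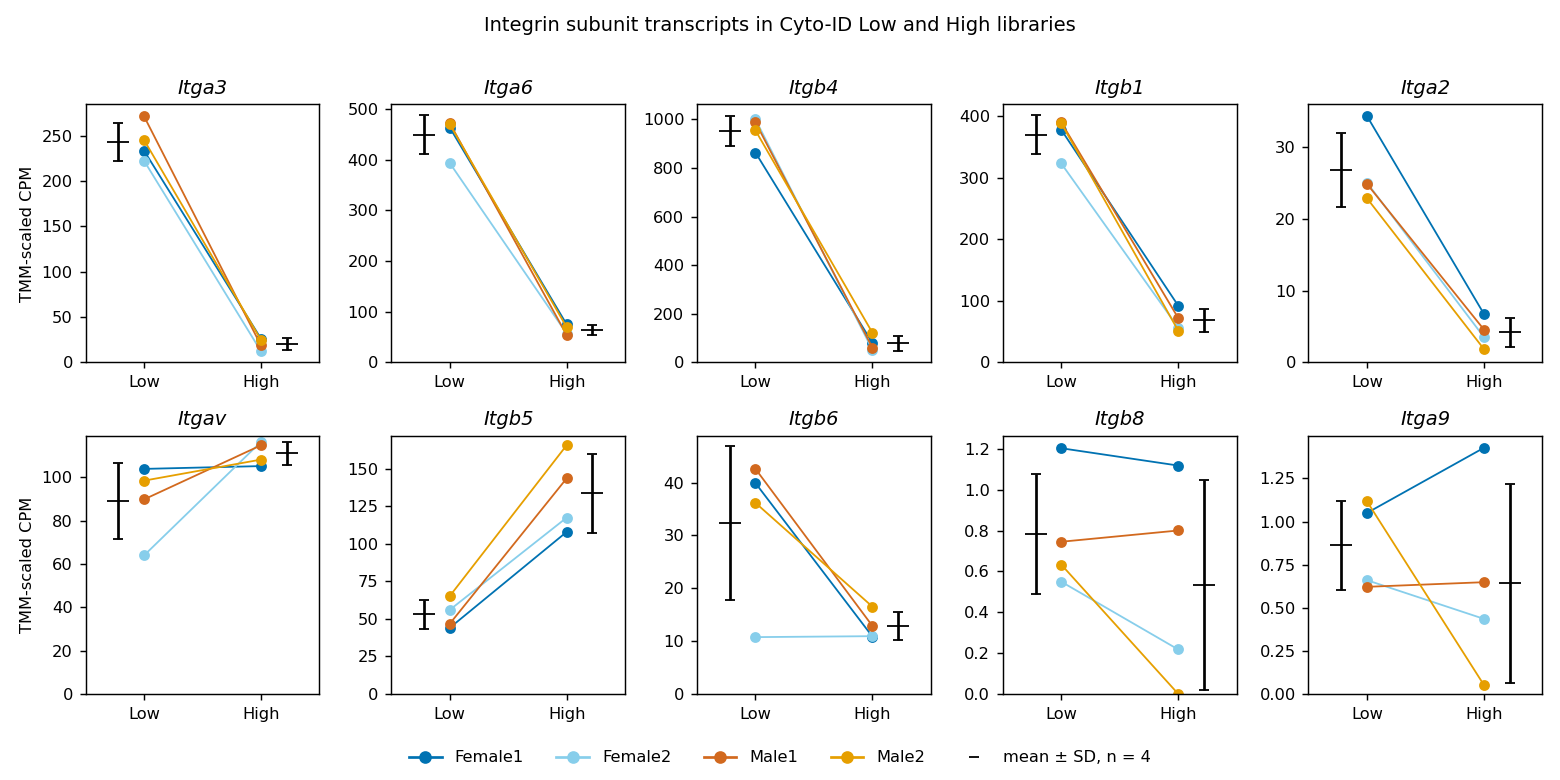
TMM-scaled CPM of the 10 integrin subunits in each library, with a line joining the Low and High library of 1 animal and the mean ± SD (n = 4) beside each fraction; each panel has its own linear axis from 0. Itga3, Itga6, Itgb4, Itgb1 and Itga2 are lower in High with no overlap. Itgb5 and Itgav are higher with no overlap, for Itgav by a narrow gap (103.9 against 105.2 CPM). Itgb6 overlaps through the Low library of Female2, and Itgb8 and Itga9 sit near 1 CPM with the High library of Male2 lowest.

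Itgb4 encodes the β4 subunit, whose long cytoplasmic tail links the hemidesmosome to keratin filaments; the gene lies at chr11:115974709-116008412 (+ strand, GRCm38). Its level was 863, 1000, 988 and 954 CPM in the Low libraries of Female1, Female2, Male1 and Male2, and 80.0, 51.5, 60.1 and 122 CPM in their High libraries. Every High library lay far below every Low library, with Male2 the highest of the High group and the Female2 library the lowest. The difference was -3.62 on the log2 scale (SE 0.27, adjusted p = 1.48e-05), a 12.3-fold lower level. Its exons overlap those of B230344G16Rik on the other strand, and whether counting used strand is not given in the sources used here.

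Itga6, the only known α partner of β4, was the other hemidesmosomal subunit (chr2:71745616-71858416, + strand). It stood at 464, 394, 472 and 470 CPM in Low and 74.9, 56.9, 54.0 and 69.3 CPM in High, in the same order of animals. The Low library of Female2 was set apart from the 3 others of its fraction but was still far above all of High. The log2 fold change was -2.82 (SE 0.17, adjusted p = 1.27e-05), or 7.05-fold lower.

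Itga3 pairs with β1 as a receptor for laminin-332, the laminin of the epithelial basement membrane (chr11:95044474-95076801, - strand). Its Low libraries held 233, 222, 271 and 245 CPM and its High libraries 26.2, 12.3, 18.6 and 24.7 CPM. The groups did not overlap, and Female2 was the lowest of both. Itga3 fell by 3.57 on the log2 scale (SE 0.24, adjusted p = 1.31e-05), which is 11.9-fold and close to the change of Itgb4.

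Itgb1 encodes the subunit by whose surface protein both fractions were sorted, and it is the common β chain of the collagen, laminin and fibronectin receptors (chr8:128685654-128733200, + strand). Its transcript was 378, 323, 390 and 389 CPM in Low against 92.2, 56.6, 72.3 and 51.8 CPM in High, from 11765 to 12883 counts a library in Low and 1006 to 2390 in High. All 4 High libraries were thus below all Low libraries although both passed the integrin β1 gate, with a log2 fold change of -2.44 (SE 0.21, adjusted p = 2.16e-05) or 5.44-fold. The amount of surface protein in either fraction was not measured in the data used here.

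Itga2, the α chain of the collagen receptor α2β1, was the scarcest of the 5 (chr13:114833081-114932100, - strand). It was at 34.3, 25.0, 24.9 and 22.9 CPM in Low and at 6.75, 3.53, 4.58 and 1.85 CPM in High, the last of which rests on 36 counts in Male2. Female1 was the highest and Male2 the lowest in both fractions. Its log2 fold change was -2.69 (SE 0.30, adjusted p = 7.47e-05).

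The αv group took a different course. Itgav encodes αv, the shared α chain of the RGD receptors αvβ5, αvβ6 and αvβ8 (chr2:83724397-83806916, + strand, exons overlapping Gm13684 on the other strand). It was 104, 63.9, 89.8 and 98.5 CPM in Low and 105, 116, 115 and 108 CPM in High, higher in High in every animal, by little in Female1 and Male2 and by most in Female2. The log2 fold change of 0.32 (SE 0.17) was not called (adjusted p = 0.141), and it turned to -0.23 when libraries were scaled by total counts alone. Without the Low library of Female2 it was 0.19.

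Itgb5, the β5 chain of a vitronectin receptor, was the 1 member called higher (chr16:33829665-33949338, + strand). Its Low libraries held 44.0, 56.0, 46.7 and 65.2 CPM, and its High libraries held 108, 117.5, 144 and 166 CPM. The highest Low library, of Male2, was well below the lowest High library, of Female1. The log2 fold change was 1.32 (SE 0.16, adjusted p = 0.000136), a 2.50-fold rise, and it was 0.75 with total-count scaling, still called.

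Itgb6, an epithelial β chain that with αv activates latent TGF-β, fell with less agreement among animals (chr2:60598292-60722643, - strand). It was 39.9, 10.7, 42.6 and 36.2 CPM in Low and 10.8, 10.9, 12.9 and 16.5 CPM in High. The Low library of Female2 was at the level of the High libraries, so the groups overlap, and in that animal High was marginally the higher. The log2 fold change was -1.32 (SE 0.33, adjusted p = 0.00851), and it ran from -0.92 without the Low library of Female1 to -1.60 without that of Female2.

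Itgb8, whose αvβ8 dimer also activates TGF-β, and Itga9, which pairs with β1 to bind tenascin and other ligands, were barely present (chr12:119158022-119238802, - strand, and chr9:118606690-118901003, + strand). Itgb8 had 39, 20, 24 and 21 counts in the Low libraries and 29, 5, 21 and 0 in the High libraries. Itga9 had 34, 24, 20 and 37 counts in Low and 37, 10, 17 and 1 in High. Both were thus low throughout, and the lowest value of each was in the High library of Male2, where 0 counts of Itgb8 allow up to 0.154 CPM (3 counts; counting error only). Neither was called, at -0.53 (SE 0.74, adjusted p = 0.607) for Itgb8 and -0.50 (SE 0.63, adjusted p = 0.561) for Itga9 on the log2 scale, and without the 2 libraries of Male2 the Itga9 value was 0.16.

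Levels of different genes were compared as CPM per kb of exon, with all GENCODE M21 exons of a gene merged. Which transcript forms the cells made was not examined, so the order and the shares below depend on these lengths. By mean CPM alone, Itga6 (450) stood above Itgb1 (370) in Low. In Low the order was Itgb4 (135.6 ± 8.81 CPM per kb, SD, n = 4), Itgb1 (90.7 ± 7.75), Itga6 (49.9 ± 4.18), Itga3 (42.6 ± 3.68), Itgb5 (14.9 ± 2.71), Itgav (8.29 ± 1.65), Itgb6 (4.55 ± 2.06), Itga2 (3.76 ± 0.72), Itga9 (0.112) and Itgb8 (0.0708). The neighbours Itga6 and Itga3, Itgav and Itgb6, Itgb6 and Itga2, and Itga9 and Itgb8 overlapped in their ranges, and the others did not. In High the order opened with Itgb5 (37.6 ± 7.36 CPM per kb), then Itgb1 (16.7 ± 4.47), Itgb4 (11.2 ± 4.46), Itgav (10.35 ± 0.49), Itga6 (7.06 ± 1.11), Itga3 (3.58 ± 1.12), Itgb6 (1.80 ± 0.37), Itga2 (0.586 ± 0.288), Itga9 (0.0833) and Itgb8 (0.0483). There Itgb4 overlapped Itgb1, Itgav and also Itga6, Itga3 overlapped Itgb6 and Itga9 overlapped Itgb8, while Itgb5 stood above all other members in every High library.

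The members summed to 350.5 ± 17.3 CPM per kb in Low and 89.0 ± 10.5 in High, a 3.94-fold lower pool. What remained had another make-up, and shares of the pool do not depend on how libraries were scaled. Itgb4 took 52.6% to 59.6% of the β subunit pool in the 4 Low libraries and 12.5% to 21.97% in High, while Itgb5 went from 5.14% to 7.20% in Low to 46.0% to 59.2% in High. Itgb1 took 36.9% ± 2.71 in Low and 25.2% ± 7.44 in High, with the High libraries spread from 16.05% in Male2 to 34.2% in Female1, the latter above the lowest Low library. Among α subunits, Itga6 went from 47.7% ± 0.72 to 32.5% ± 2.72 and Itga3 from 40.7% ± 2.03 to 16.3% ± 4.02. Itgav went in share from 6.46% to 9.05% in Low to 41.1% to 54.6% in High, without overlap. Itgb6, whose own level fell, kept a small share of the β pool at 1.84% ± 0.83 in Low and 2.66% ± 0.26 in High.

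**Figure D2:**
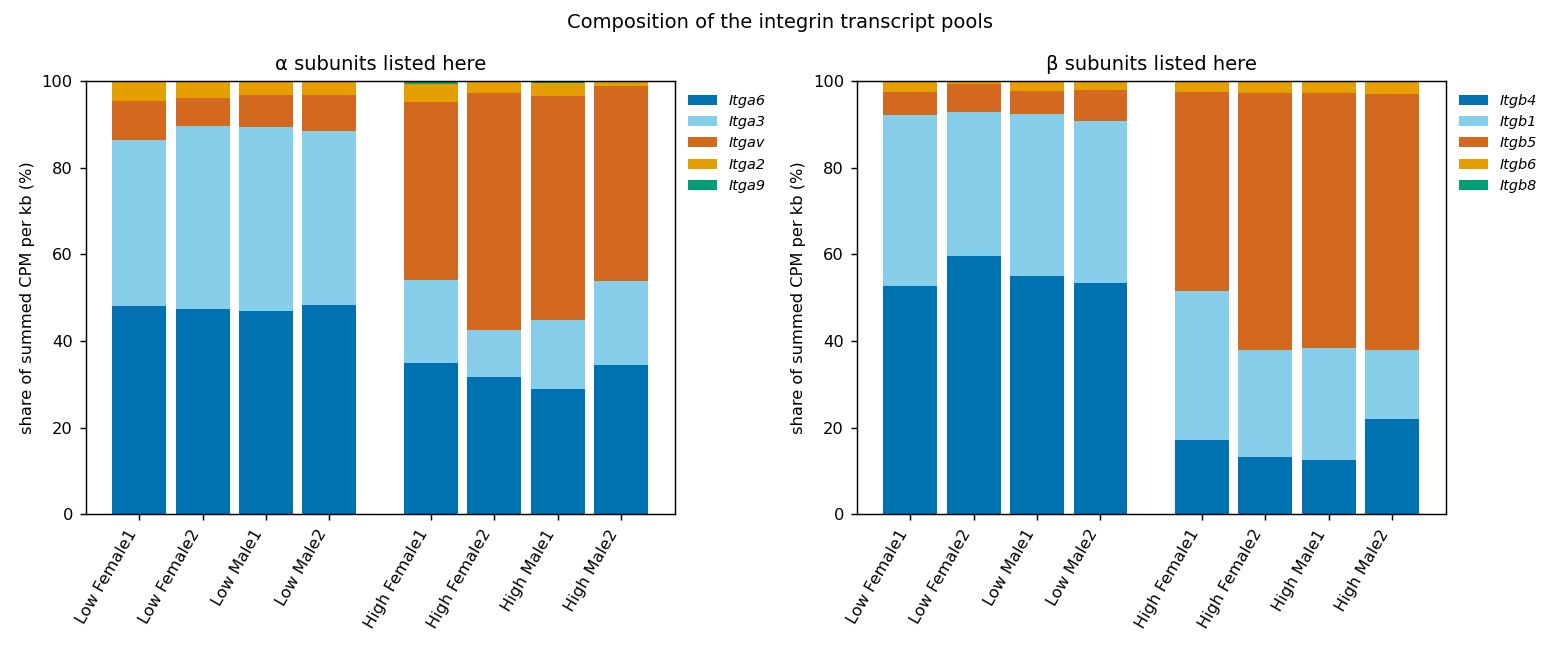
Share of each subunit in the summed CPM per kb of the 5 α subunits (left) and the 5 β subunits (right), 1 stacked bar per library, on a percent axis from 0 to 100. Itga6 with Itga3 and Itgb4 with Itgb1 fill most of every Low bar, and Itgav and Itgb5 are the largest single shares of every High bar.

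Integrins reach the cell surface only as pairs, so the balance of partner transcripts within a library was followed as the log2 ratio of α to β counts, for 9 known pairs with 0.5 added to each count. These ratios carry no scaling between libraries, and as counts of genes of unequal length only their change is read. Itgav/Itgb1 moved most, from -1.86, -2.34, -2.12 and -1.98 in the Low libraries of Female1, Female2, Male1 and Male2 to 0.19, 1.04, 0.67 and 1.06 in High. The 2 groups of ratios were far apart, by 2.82. Itga6/Itgb4, the hemidesmosome pair, went from -0.90, -1.34, -1.06 and -1.02 in Low to -0.09, 0.14, -0.16 and -0.81 in High, so Itgb4 was lower by a larger factor than Itga6 in every animal, least so in Male2. Itga3/Itgb1 fell by 1.15 and Itgav/Itgb5 by 0.99, and Itgav/Itgb6 was higher by 1.52, each with no overlap between the fractions. For these 5 pairs the exact permutation test of 4 libraries against 4 (two-sided) gave p = 0.0286, the smallest it allows, and 0.0514 after Benjamini-Hochberg adjustment over the 9 pairs, so none passed 0.05.

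The other 4 pairs overlapped between fractions. Itga2/Itgb1 differed by -0.33 (exact permutation p = 0.314; -0.11 without the High library of Male2) and Itga6/Itgb1 by -0.35 (exact permutation p = 0.143). In Low the Itga6/Itgb1 ratio was nearly the same in all 4 animals, at 0.29, 0.28, 0.28 and 0.27, but in High it ran from -0.42 in Male1 to 0.42 in Male2. Itga9/Itgb1 was higher by 1.49 (exact permutation p = 0.143), with Male2 the 1 animal in which it was lower. Without 1 library it ran from 1.06 (High Female1) to 2.20 (High Male2). Itgav/Itgb8 was higher by 1.82 (exact permutation p = 0.229), a value that rests on 12.04 in the High library of Male2 where Itgb8 had 0 counts; with 5 added to each count it was 0.89. Without 1 library it ran from 0.69 (High Male2) to 2.52 (High Female1). With 5 added, 6 pairs passed at an adjusted p of 0.0429, the 5 named above and Itga9/Itgb1. That test does not use the pairing by animal; the exact sign-flip test that does cannot give a p below 0.125 with 4 animals, so by it no pair passed with either added count.

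**Figure D3:**
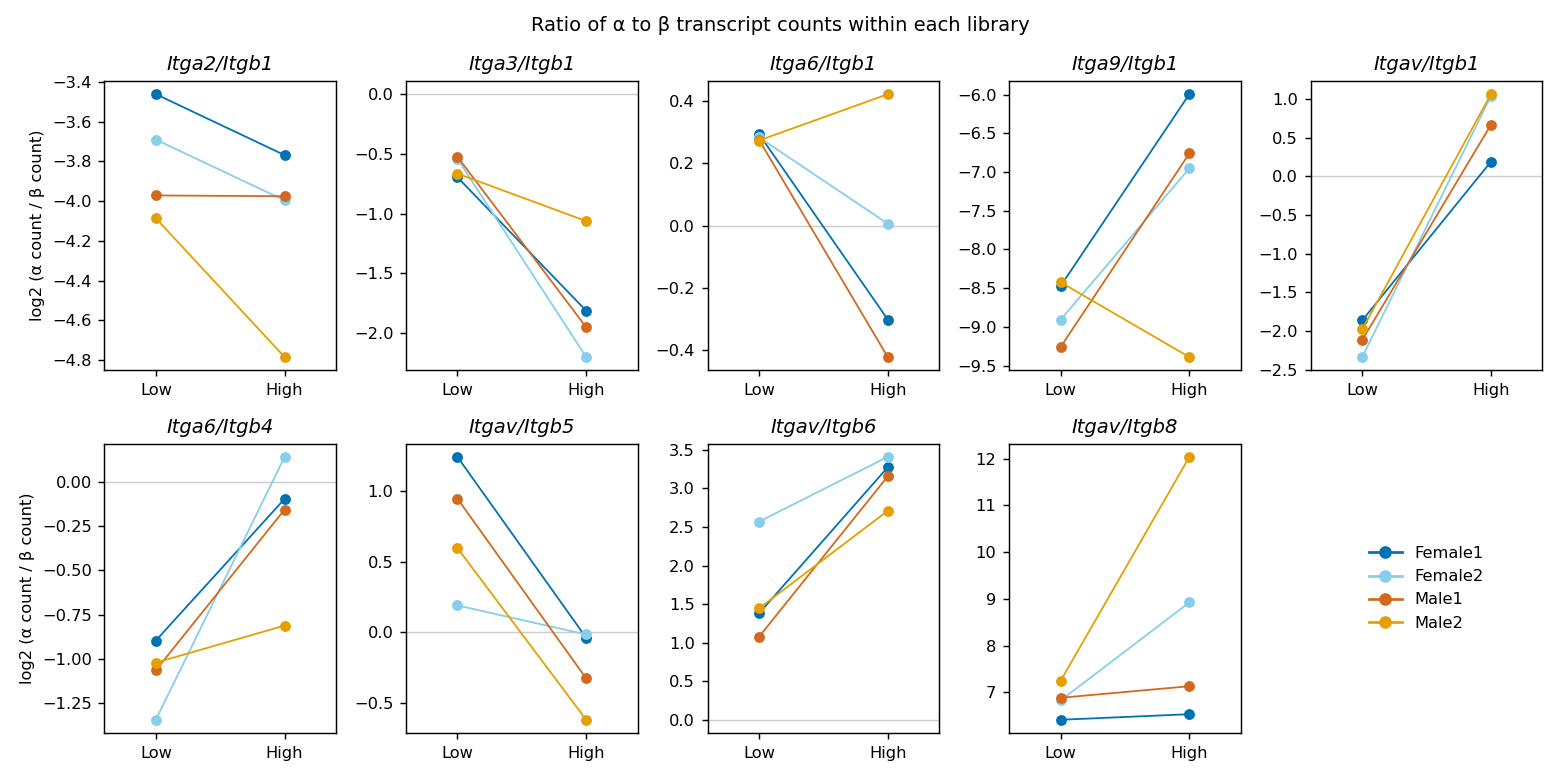
Log2 ratio of α to β transcript counts within each library for the 9 pairs, with a line for each animal from Low to High and a separate axis for each panel; a grey line marks equal counts. Itgav/Itgb1, Itga6/Itgb4 and Itgav/Itgb6 are higher and Itga3/Itgb1 and Itgav/Itgb5 lower in High with no overlap, and Male2 moves against the other animals in Itga6/Itgb1 and Itga9/Itgb1.

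Sex was examined because both sexes gave 2 animals. The interaction of sex with fraction, the test of whether High against Low differs between males and females, was called for 0 of 17344 genes by edgeR's quasi-likelihood test (0.0%), and 19 genes had a p below 0.05 before adjustment. A fit that blocked on animal gave 0 and 38. No member was among the 19, and the smallest unadjusted p of a member was 0.315. The 19 genes are far fewer than a limit of 0.05 passes by chance alone over 17344 genes. The test could thus hardly single out a member, and no conclusion about sex is drawn from it. The members' fold changes differed between males and females by -1.37 to 0.41 on the log2 scale, which 2 animals of each sex measure with a wide error.

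Besides the 10 members, 16 other integrin genes were in the table, among them leukocyte and muscle integrins, and 15 were tested. Of these, 2 were lower in High (Itga5, Itga1), 1 was higher (Itga2b) and 12 were not called, with a median log2 fold change of -0.26, beside 48.7% called over all genes. That median ran from -0.77 without the High library of Male1 to 0.05 without the High library of Male2, so its direction rests on 1 library. Itga5, the α chain of the fibronectin receptor α5β1, was 39.5, 13.0, 34.2 and 29.7 CPM in Low and 9.07, 2.44, 5.42 and 5.56 CPM in High (log2 fold change -2.36, SE 0.43, adjusted p = 0.00129). Female2 was again the lowest of the Low libraries, and the groups did not overlap. Itga2b, known as the platelet chain αIIb, went from 10.8, 8.08, 9.32 and 8.03 CPM to 20.0, 23.3, 22.9 and 33.5 CPM (log2 fold change 1.45, SE 0.19, adjusted p = 0.000198). Itgb3, the partner of αIIb in platelets, was at 1.90 CPM in Low and 1.12 CPM in High and was not called.

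Itga1, the other collagen-binding α chain, was called at -1.51 (SE 0.52, adjusted p = 0.0349) from 6.04 CPM in Low and 2.20 CPM in High, and is named for its place in that count. Its adjusted p passed 0.05 upward without the Low library of Female1 (0.0569), Female2 (0.118), Male1 (0.0794) or Male2 (0.124), or without the High library of Female2 (0.0951). The same held without both libraries of Male2 (-0.97, adjusted p = 0.0650) or of Female2 (-1.32, adjusted p = 0.203). The 8 leukocyte markers summed to 49.9 to 83.1 CPM in Low and 5.14 to 80.2 CPM in High, where Cd3e had 0 counts in the libraries of Female2 and Male2 and Cd3g in that of Male2. The 5 endothelial markers summed to 10.1 to 19.6 CPM in Low and 2.52 to 22.9 CPM in High, and the 6 fibroblast markers to 308 to 480 CPM and 36.6 to 456 CPM. None of the 3 sums was wholly higher in High, and their part in the values of the scarce integrins was not tested.

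**Figure D4:**
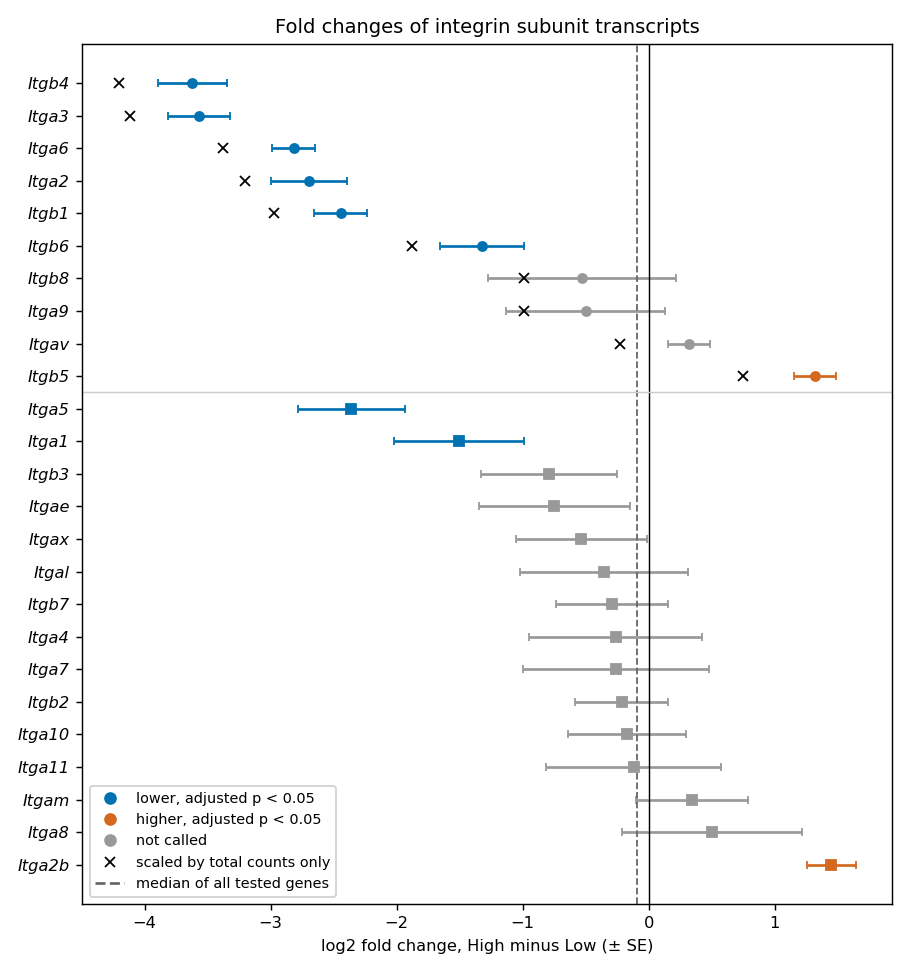
Log2 fold change of High over Low (± SE) for the 10 members (circles, above the grey line) and the 15 other integrin genes tested (squares), with crosses for the members' values under total-count scaling and a dashed line at the median of all genes (-0.09). The 5 laminin, collagen and β1 subunits lie at -2.44 or lower, Itgb5 and Itga2b lie above 1, and most other integrins lie near 0 with wide errors.

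Among the ligands, 12 of 18 tested basement membrane genes were lower in High and 0 were higher (median log2 fold change -1.70; 20 were listed), beside 25.3% and 23.4% of all genes. The largest change was in Col4a6, a collagen IV chain, at 11.0, 9.84, 13.3 and 11.0 CPM in Low and 0.502, 0.305, 0.725 and 0.926 CPM in High (-4.24, SE 0.26). Lamb3, the β3 chain of laminin-332, had the highest mean CPM over both fractions and went from 398, 437, 514 and 507 CPM to 33.5, 17.5, 22.5 and 46.9 CPM (-3.96, SE 0.29). Lama3, the α3 chain of laminin-332, fell by 2.53 on the log2 scale and was named after its values were seen. Lamb3 and Lama3, like the receptor α chains Itga3 and Itga6, were thus lower in High with no overlap. The 6 genes not called were Lama2, Lama4, Col4a1, Col4a2, Nid1 and Nid2, of which Col4a1 was at 17.0 CPM in Low and 15.5 CPM in High. Its High library of Male2 stood lowest, at 0.875 CPM, beside the lowest sums of the fibroblast and endothelial markers given above.

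Of 16 genes for RGD ligands, other matrix ligands and latent TGF-β, 5 were lower in High, 0 were higher and 11 were not called, with a median of -0.73. Over all genes 25.3% were lower, and with no filter on low counts 10 of the 16 were called lower. On leaving out 1 library the median ran from -1.12 (High Male1) to -0.37 (High Male2), and the count of 5 was the same each time. Ccn2, a matricellular integrin ligand, was the largest, at 120, 42.5, 196 and 80.7 CPM in Low and 10.9, 5.36, 8.92 and 10.6 CPM in High (-3.57, SE 0.42, adjusted p = 0.000103). Its Low libraries were widely spread yet all above High, and its exons overlap Gm15270 on the other strand. Ccn1, its relative, was lower by -1.47 (SE 0.25) from 246 ± 64.3 to 88.0 ± 26.1 CPM (SD, n = 4). Tgfb1, whose latent form αvβ6 and αvβ8 bind, was named after its values were seen: it went from 33.4 to 7.25 CPM (-2.20, SE 0.18). The vitronectin gene Vtn, a ligand of αvβ5, was at 0.807 CPM in Low and 0.938 CPM in High and was not called.

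Of the 8 hemidesmosome and tetraspanin partners tested, the 3 lower in High were the hemidesmosomal plaque and collagen genes Col17a1, Dst and Plec, the 2 higher were the tetraspanins Tspan15 and Cd9, and Cd151, Cd81 and Cd82 were not called (median -0.16). The share called over all genes was 48.7%, and with total-count scaling this list had 6 lower, 1 higher and a median of -0.73. Col17a1, the transmembrane collagen that binds β4, held 1952 ± 248 CPM in Low and 137 ± 65.4 CPM in High (-3.86, SE 0.32, adjusted p = 1.83e-05). Dst, which encodes the plaque protein BPAG1, was lower by -3.54 (SE 0.31), from 1429 to 125 CPM, and was named after its values were seen. Plec, which encodes the plaque protein plectin, had a smaller fold change of -1.26 (SE 0.21). Beside these stood Itgb4 at -3.62 and Itga6 at -2.82. Cd151, the tetraspanin that binds α3β1 and α6 integrins, was 79.1, 83.7, 88.2 and 92.5 CPM in Low and 75.2, 76.0, 76.0 and 97.4 CPM in High (-0.08, SE 0.13, adjusted p = 0.644). Tspan15 was higher at 8.06 ± 0.90 against 22.2 ± 3.13 CPM (1.46, SE 0.16), and Cd9 at 0.43 (SE 0.16, adjusted p = 0.0456). The call of Cd9 was lost without any 1 library other than the Low library of Male2, with adjusted p from 0.0569 to 0.110, and its value was -0.14 with total-count scaling.

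Of 15 genes for the machinery that switches integrins on (talins and kindlins, the ILK-PINCH-parvin complex and Rap1 with its adaptor), 4 were lower (Fermt1, Tln1, Rsu1, Parva), 1 was higher (Fermt3) and 10 were not called (median -0.71), a share of lower genes near the 25.3% of all genes. With total-count scaling 8 were lower and 1 higher, and without the High library of Male2 the median was -0.40. Of the kindlins, Fermt1 was lower, Fermt3 higher and Fermt2 not called. Fermt1, the kindlin of epithelia, was 47.0, 76.9, 61.4 and 53.6 CPM in Low and 9.53, 8.97, 10.3 and 10.9 CPM in High (-2.59, SE 0.18, adjusted p = 1.33e-05). Fermt3, known as the kindlin of blood cells, was 13.2, 15.9, 7.55 and 19.2 CPM in Low and 95.8, 115, 98.8 and 156 CPM in High (3.05, SE 0.30, adjusted p = 3.51e-05). For Fermt3 the lowest High library lay above the highest Low library, and for Fermt1 the reverse held. The leukocyte marker sum, given above, was lowest in the High library of Male2 (5.14 CPM), the library with the highest Fermt3; a part of blood cells in the Fermt3 value was not tested. Exons of Fermt3 overlap those of Trpt1 on the other strand. Tln1, which encodes talin-1, was named after its values were seen and was lower by -2.34 (SE 0.17). Rap1b, the most abundant of the list, went from 198 to 147 CPM (-0.42, SE 0.19, adjusted p = 0.0911). It was called lower without the Low library of Female2 (-0.58, adjusted p = 0.00784), without both Female2 libraries (adjusted p = 0.00844) and with total-count scaling (-0.98, adjusted p = 0.00121).

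Integrin inactivators and traffic genes were the list with more genes higher than lower: of 13 tested, 5 were higher, among them Rab11fip1 and Rab25, and 1 was lower (Krit1), with a median of 0.16. The share called is near the 48.7% of all genes, and on leaving out 1 library the median ran from 0.10 (High Female2) to 0.27 (High Female1). Under total-count scaling this list turned, with 4 higher, 7 lower and a median of -0.43. Rab11fip1, an effector of recycling endosomes that carries integrins back to the surface, was 213, 73.0, 150 and 186 CPM in Low and 673, 732, 852 and 1130 CPM in High (2.43, SE 0.31, adjusted p = 0.000161). Rab25, its epithelial Rab partner, was higher by 2.35 (SE 0.25) and was named after its values were seen. Both were higher in every High library than in any Low library. Krit1 was lower by -0.68 (SE 0.16, adjusted p = 0.00624). Flna, the most abundant of the list by mean CPM over both fractions though not in High, is a filamin that competes with talin for β tails. It went from 624 to 464 CPM and was not called (-0.49, SE 0.30, adjusted p = 0.207), with -0.15 without the Low library of Female1 and a call at -1.03 (adjusted p = 0.0161) under total-count scaling.

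Of 27 focal adhesion and kinase genes, 17 were lower, 5 higher and 5 not called (median -0.57), beside 25.3% lower and 23.4% higher over all genes, and with total-count scaling 19 were lower and 2 higher. Without the High library of Female2, or without that of Male2, 3 genes were called higher. Tns1, a tensin that ties β tails to actin, was 84.6, 103, 98.1 and 98.4 CPM in Low and 8.14, 4.66, 4.92 and 9.36 CPM in High (-3.83, SE 0.25, adjusted p = 1.27e-05). All 4 tensins were lower, and so were the genes of focal adhesion kinase (Ptk2), paxillin (Pxn) and Src, at -0.88, -2.15 and -0.86. Of the other Src family kinases listed, Fyn was higher and went from 5.00, 5.72, 2.30 and 7.82 CPM to 36.3, 54.9, 39.3 and 55.0 CPM (3.15, SE 0.34, adjusted p = 6.29e-05). Yes1 was not called. Actn4, an actin crosslinker and the most abundant of the list, was called at 0.61 (SE 0.19, adjusted p = 0.0224), but was at 0.03 with total-count scaling. Its adjusted p was 0.0563 without the High library of Female2 and 0.0672 without that of Male2, and its exons overlap those of Capn12. Exons of Itga1, Lama3, Col4a1, Col3a1, Dst, Plec, Cd151, Cd9, Tspan15, Tln1 and Rab11fip1 also overlap those of other annotated genes, for Itga1, Col3a1, Plec and Tspan15 on the same strand, so reads of those neighbours may be among their counts.

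**Figure D5:**
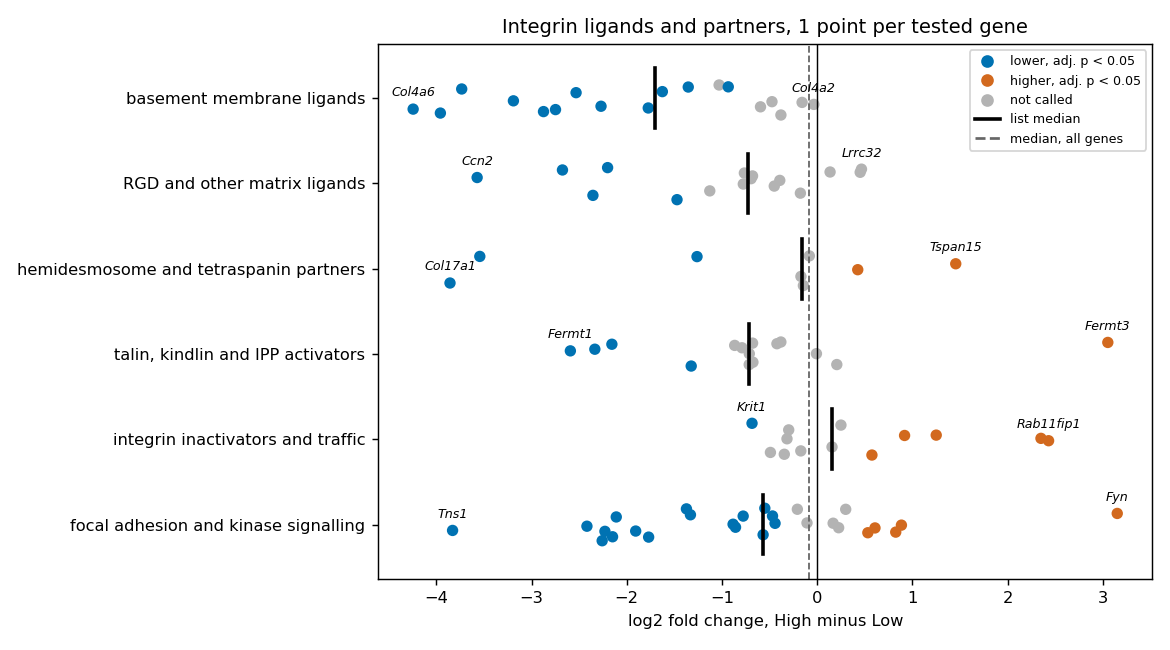
Log2 fold change of High over Low for each tested gene of the 6 lists of ligands and partners, coloured by call, with a bar at each list's median and a dashed line at the median of all genes (-0.09); vertical spread within a list only separates points. Basement membrane ligands hold no gene called higher, and the list of inactivators and traffic genes is the 1 with a median above 0 (0.16).

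Genes with profiles most like 2 of the members were sought among 10007 genes with a mean of at least 5 CPM, by the root mean square difference of centred log2 CPM over the 8 libraries. For Itgb1 the nearest were Sms (0.101), Tcaf1 (0.127), Dzip1l (0.130), Prkacb (0.142) and Krtcap3 (0.165). All 5 were lower in High by -2.60 to -2.30 on the log2 scale, as Itgb1 was by -2.44. For Itgb8 the nearest were Adamts2 (0.257), Mcam (0.272), Krt18 (0.295), Col3a1 (0.299) and Cald1 (0.300), none of which was called. Col3a1 belongs to the fibroblast marker list, whose sum, like Itgb8, was lowest in the High library of Male2 (36.6 CPM) and higher in that of Female1 (456 CPM). Such likeness rests on libraries that share depth and fraction and is a description only. Because the genes were chosen for their likeness over these same libraries, their similar fold changes and calls follow from that choice.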

How the data were processed

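The deposited table holds raw counts per gene for 8 libraries of sorted esophageal cells. Per the submitters' processing notes the tools include STAR 2.7.3 and DESeq2 and the build is GRCm38; the counting program and its strand setting are not given in the sources used here. From the counts deposited by the authors, edgeR 4.0.16 (R 4.3.3) was run with filterByExpr by fraction, TMM factors, sex as a covariate and the quasi-likelihood test over 17344 genes, with calls at an adjusted p under 0.05. P-values of this fit measure the spread between libraries of a fraction, with sex accounted for, and do not use the pairing by animal. The test was checked on simulated data with far fewer changed genes than here and no pairing by animal. Not all changed genes were recovered there, so a gene not called is not shown to be unchanged. Ratios of counts were tested with an exact permutation test, Benjamini-Hochberg adjusted over 9 pairs. Exon lengths came from GENCODE M21 and promoters from RefSeq.

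The members and lists were chosen with earlier results of these data known. Named besides the members were, for each list, the gene of highest mean CPM over all libraries and, in each direction, the called gene of largest change whose mean reached 5 CPM; other genes were chosen after their values were seen. The alternatives tried were DESeq2 1.42.0, limma 3.58.1 with voom, other scalings and filters, no covariate, the animal as a block, and leaving out libraries. Library titles name the animal, which pairs Low with High; deviations of the 2 libraries of an animal correlated at 0.43 (Female1), 0.32 (Female2), -0.02 (Male1) and 0.28 (Male2). No 2 libraries of a fraction agreed within sampling noise (chi-square per degree of freedom 18.0 to 80.8).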

Additional observations from a re-analysis of the deposited data

Results flagged for a closer look

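The Itga6 level in the Cyto-ID Low library of Female2, 393.7 CPM, lay apart from the 3 other Low libraries (464, 472 and 470 CPM), by more than Dixon's 95% limit for 4 samples. It was 1 of 52 groups of 4 libraries examined, and chance singles out about 1 group in 20. Without that library the log2 fold change of Itga6 stayed between the values of -2.92 and -2.72 that leaving out any 1 library gave.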

How the results depend on the processing

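In every alternative 7 members were called, also with the animal as a replicate block, where 7 members and 9336 genes of all tested were called. Over all genes the count of 8440 ran from 8066 to 10708 over the alternatives and from 7269 to 8106 on leaving out 1 library or 1 animal; with total-count scaling 8514 were lower and 2194 higher. Direction and call were kept in every alternative by 8 of the 10 members and 19 of 24 other named genes. The exceptions among members were Itgav, at -0.23 with total-count scaling, and Itga9, at 0.16 without both libraries of Male2; neither was called in any setting. Of the other genes, Cd9 turned to -0.14 with total-count scaling. Counts that moved by over 1.5 times were the RGD and other matrix ligands with no filter on low counts (10 for 5), the talin, kindlin and parvin genes with total-count scaling (9 for 5), the inactivators and traffic genes with total-count scaling (11 for 6) and the ratio pairs past 0.05 with 5 added to each count (6 for 0). In the ratio pairs the differences of the 5 pairs named above barely moved, as for Itga3/Itgb1 from -1.15 to -1.14. Itga9/Itgb1 joined them, and with 6 pairs at the smallest p the adjusted p of each is lower. The cause of the other moves was not tested. The ratios kept their direction in 9 of 9 pairs. With at least 10 counts required in every library Itgb8 and Itga9 gave no value, and on leaving out libraries Itgb8 ran from -1.19 to -0.13 and Itga9 from -1.12 to 0.16. The settings without 1 animal were chosen after seeing the data.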

Other observations

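Library position recurred across the 25 integrin genes tested. The Low library of Female2 was the lowest of its fraction for 12 of them, where it was the lowest for 26.0% of all genes, and the Low library of Female1 was the highest for 14 (27.0% of all genes). The High library of Male2 was the lowest for 16 (29.2% of all genes) and the High library of Female1 the highest for 18 (25.7% of all genes). High Male2 was also the lowest of all 8 libraries in the summed leukocyte (5.14 CPM), fibroblast (36.6 CPM), endothelial (2.52 CPM), muscle (1.34 CPM) and glia and neuron (5.56 CPM) markers. The integrins at 0 or 1 count there include Itgb8, Itga9, Itga4, Itga8 and Itgal. What these libraries share was not tested.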
